A study of Drosophila melanogaster with 6 samples.

Results

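Messenger RNA of Drosophila melanogaster larvae carrying a hairpin against trr was compared with that of larvae carrying a hairpin against Cmi, both at the blue gut stage. The comparison rests on 1 library per side and uses no wild-type library. Its members are the 11303 genes, of 15741 listed, whose RPKM (reads scaled for gene length and library depth) averaged at least 1 over both libraries. Of the 4438 entries left out, 865 were at 0 in both libraries. The cut had no natural gap, since 18 members lay within 0.01 above a mean of 1 and 13 entries within 0.01 below it. The study sequenced 6 libraries, 1 for each of 3 genotypes at 2 stages. All larvae were whole animals in the wandering part of the third instar, kept at 25 °C and pooled at more than 20 animals of a genotype per library. The genotypes were wild type, of a stock that the labels do not name, larvae with an shRNA that targets Cmi, and larvae with an shRNA that targets Trr. Both hairpins were driven by the GawB69B Gal4 insertion, which is known for expression in the epidermis and the imaginal discs, while the RNA came from all tissues. The labels do not say whether the wild-type larvae carried this driver. Blue gut larvae still hold dyed food early in wandering, and clear gut larvae have emptied the gut later, closer to pupariation.

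Trr is the histone H3 lysine 4 methyltransferase of the COMPASS-like complex of the fly, which marks enhancers. Cmi, named Lpt in the deposited table, carries the PHD fingers that correspond to the N-terminal part of the mammalian KMT2C and KMT2D proteins, so that both proteins work in the same complex. A comparison of the hairpins with each other, rather than with wild type, asks in which genes the larvae depleted of either subunit differ.

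The targeted genes were read first. Lpt stood at 4.44 RPKM in the blue gut library labelled Cmi depletion and at 5.95 RPKM in the library labelled Trr depletion, a ratio of 1.34 with a 95% counting interval of 1.19 to 1.51. Wild type had 5.57 RPKM of Lpt at blue gut. The gene trr stood at 4.49 RPKM in the Cmi-labelled library and at 3.60 RPKM in the Trr-labelled library, a ratio of 0.802 (0.724 to 0.888), and at 2.92 RPKM in wild type. Each targeted gene was thus lower in its own library than in the other. At blue gut trr in the Trr-labelled library still lay above wild type, so the libraries are named by their labels. Summed over the 16 COMPASS subunits, the Trr-labelled library had 181 RPKM, the Cmi-labelled 187 RPKM and wild type 159 RPKM at blue gut. At clear gut Lpt had 5.11 RPKM in the Cmi-labelled, 6.95 RPKM in the Trr-labelled and 6.66 RPKM in the wild-type library, and trr had 5.92, 4.76 and 6.19 RPKM in the same order. Among the 16 COMPASS subunits measured none lay 1.5-fold apart at blue gut. Their median log2 ratio was -0.01, and the widest difference was in Pa1, a subunit of the Trr complex, with 14.8 RPKM in the Cmi-labelled and 10.4 RPKM in the Trr-labelled library. Utx, which removes methyl groups from histone H3 in this complex, had 15.07 and 15.04 RPKM.

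The blue gut libraries were close for most genes. Recovered depths were 23.6 M reads for the Cmi-labelled and 23.3 M for the Trr-labelled library, and 23.1 to 25.0 M over all 6. Across the 11303 genes the log2 levels correlated with a Pearson r of 0.972, as a description over genes that share both libraries. Differences are given on the scale of log2(RPKM + 1), Trr-labelled over Cmi-labelled, and their median was 0.06 with an SD of 0.43 across genes. Some 10122 genes (89.6%) lay within 1.5-fold. Above equal levels lay 6685 of the 11303 genes and below them 4612, which is the background for such counts in the lists. At least 2-fold higher values in the Trr-labelled library were found for 134 genes (1.19%) and at least 2-fold lower values for 175 genes (1.55%). Under median-ratio scaling, which moved the median of all genes from 0.06 to -0.07, the split was 91 higher and 230 lower, and with a pseudocount of 0.1 it was 241 higher and 240 lower. At 1.5-fold the counts were 759 higher (6.72%) and 422 lower (3.73%). Since no group has a replicate, no p-value exists within the stage, pool and genotype cannot be told apart, and the counts describe these libraries. The 95% counting interval, from exact Clopper-Pearson limits of the share of reads, lay wholly past 2-fold for 97 of the higher and 143 of the lower genes.

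**Figure D1:**
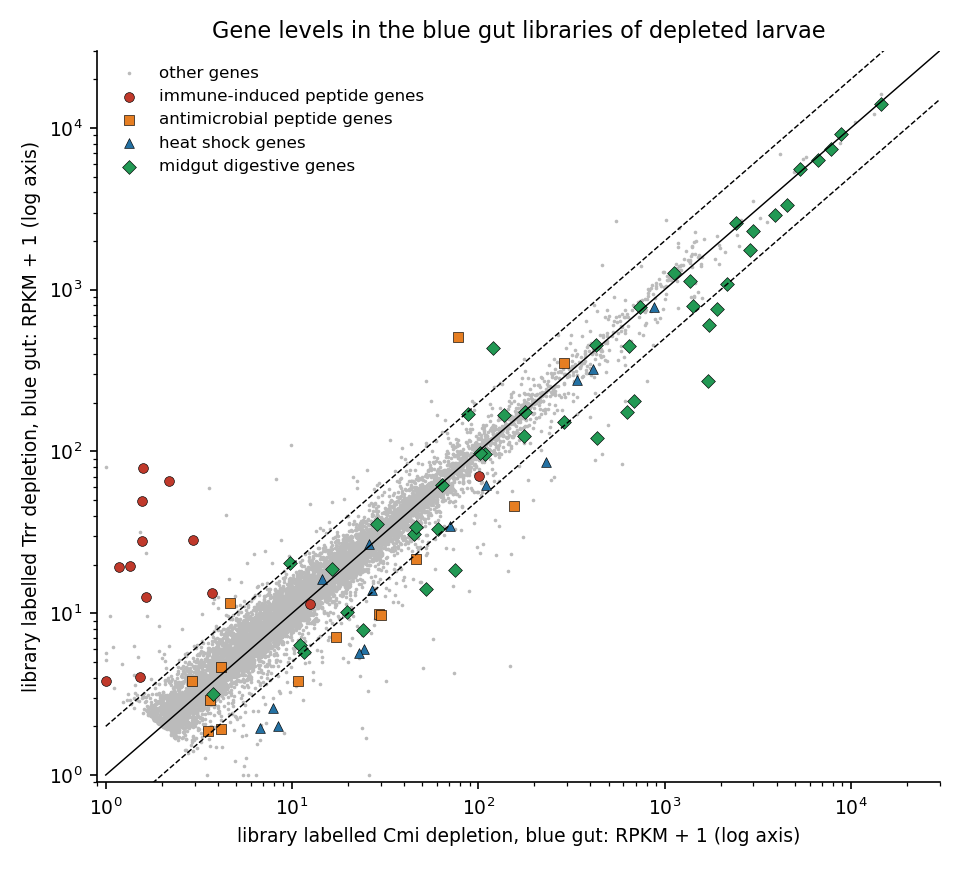
Level of each of the 11303 genes at blue gut, with RPKM + 1 in the library labelled Cmi depletion on the x axis and in the library labelled Trr depletion on the y axis, both log axes. The solid line marks equal levels and the dashed lines 2-fold. Of the coloured lists, 11 immune-induced peptide genes lie above the upper line, while 10 midgut digestive genes and 7 heat shock genes lie below the lower line.

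Secreted immune peptides were among the genes with the widest ratios. Both immune lists are given member by member, beyond the members that the naming rule picks. Of 13 immune-induced peptide genes, which encode Bomanins, Daisho peptides and other small peptides that appear in the blood after infection, 11 had at least 2-fold higher values in the Trr-labelled library and none had lower values, against 1.19% of all genes. Their median log2 ratio was 3.26. IM2, the Bomanin BomS2, had 78.3 RPKM in the Trr-labelled and 0.58 RPKM in the Cmi-labelled library, with 1.48 RPKM in wild type. The ratio of the hairpin libraries was 135, with a counting interval of 70.9 to 296. IM2 was low in every clear gut library, at 0.49 RPKM in the Cmi-labelled, 1.91 RPKM in the Trr-labelled and 0.94 RPKM in the wild-type library. IM1, the Bomanin BomS1, had 64.6 RPKM against 1.20 RPKM (ratio 54.0, 29.96 to 108.8). Wild type had 0.33 RPKM of IM1, and the clear gut libraries had 1.13, 0.21 and 0.95 RPKM. The Daisho genes IM14 and IM4 had 48.4 and 27.1 RPKM in the Trr-labelled library and 0.57 RPKM each in the Cmi-labelled library.

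The remaining Bomanins followed the same order at lower levels. IM23 had 27.2 RPKM in the Trr-labelled and 1.95 RPKM in the Cmi-labelled library, CG15067 had 18.6 and 0.35 RPKM, and CG15065 had 18.4 and 0.18 RPKM. CG15065 rests on 1 read in the Cmi-labelled library, so its ratio of 101 has an interval from 17.8 to 4043. CG16836 had 11.7 and 0.65 RPKM, and CG18107 had 3.03 and 0.52 RPKM. CG43202 had 2.83 RPKM against 0 reads, and was at least 10.8-fold higher against a floor of 3 reads in that library. In all 11 genes the wild-type blue gut level lay nearer to the Cmi-labelled library, so the Trr-labelled library was the high one of the 3. On the log2(RPKM + 1) scale only CG15068 of the 11 was again at least 2-fold higher at clear gut, with 3.70 against 1.22 RPKM. At low levels the added 1 narrows the ratio, as for IM2, whose clear gut RPKM values were more than 2-fold apart. The members that did not differ by 1.5-fold were IM18, at 10.3 and 11.4 RPKM, and CG16712, at 69.3 and 99.9 RPKM.

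The antimicrobial peptide genes split. These peptides kill bacteria and fungi, and their genes are textbook targets of the Toll and Imd pathways. Of 14 measured, 2 had at least 2-fold higher values and 7 had at least 2-fold lower values in the Trr-labelled library, against 1.19% and 1.55% of all genes. Below equal levels lay 9 and above them 5, against 4612 and 6685 of all 11303 genes. Drs, the antifungal drosomycin that serves as the standard readout of Toll, had 508 RPKM in the Trr-labelled and 76.7 RPKM in the Cmi-labelled library (ratio 6.62, 6.15 to 7.13). Wild type lay between them with 233 RPKM, and at clear gut the 3 genotypes were close, at 959 RPKM in the Cmi-labelled, 1027 RPKM in the Trr-labelled and 798 RPKM in the wild-type library. CecC, a cecropin, had 10.6 against 3.67 RPKM.

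Dpt, the diptericin used as the standard readout of Imd, had 45.0 RPKM in the Trr-labelled and 154 RPKM in the Cmi-labelled library (ratio 0.292, 0.265 to 0.322), with 26.9 RPKM in wild type. At clear gut its order was the opposite, with 224 RPKM in the Trr-labelled, 73.5 RPKM in the Cmi-labelled and 35.0 RPKM in the wild-type library. DptB had 20.7 and 45.2 RPKM at blue gut, and the attacins AttC and AttD had 6.09 and 16.2 RPKM and 8.91 and 28.3 RPKM in the same order. Dro, another peptide of this type, had 2.83 and 9.80 RPKM. AttA and AttB are close copies, and their values of 0.92 and 3.17 RPKM and of 3.62 and 3.17 RPKM are uncertain where reads could be split between them. For 6 of the 7 lower genes the wild-type level lay nearer to the Trr-labelled library, the exception being Drsl5 with 118 RPKM in wild type, 29.2 RPKM in the Cmi-labelled and 8.73 RPKM in the Trr-labelled library. Mtk, metchnikowin, had 353 and 287 RPKM. Def, the defensin, had 0.87 and 2.52 RPKM, Drsl2 had 1.91 and 2.62 RPKM, and CecA2 had 2.83 and 1.90 RPKM.

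Among 10 peptidoglycan recognition genes, whose proteins sense or degrade bacterial cell wall, 1 was at least 2-fold lower, against 1.55% of all genes, and none was higher. PGRP-SC1b, an amidase, had 28.7 RPKM in the Trr-labelled and 173 RPKM in the Cmi-labelled library (ratio 0.166, 0.1496 to 0.1837), with 46.6 RPKM in wild type, while PGRP-SC2, another amidase of the family, had 279 and 195 RPKM. TotA, a stress-induced secreted factor of the Turandot family, had 13.7 RPKM in the Trr-labelled, 72.4 RPKM in the Cmi-labelled and 25.3 RPKM in the wild-type library, and again 23.3 RPKM against 62.3 RPKM at clear gut. BaraA1 (CG33470), a Toll target whose peptides include several of the IM series, and Mtkl (CG43236) were picked after their values were seen. BaraA1 had 39.4 RPKM in the Trr-labelled and 3.42 RPKM in the Cmi-labelled library. Mtkl had 4.71 RPKM against 0 reads.

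**Figure D2:**
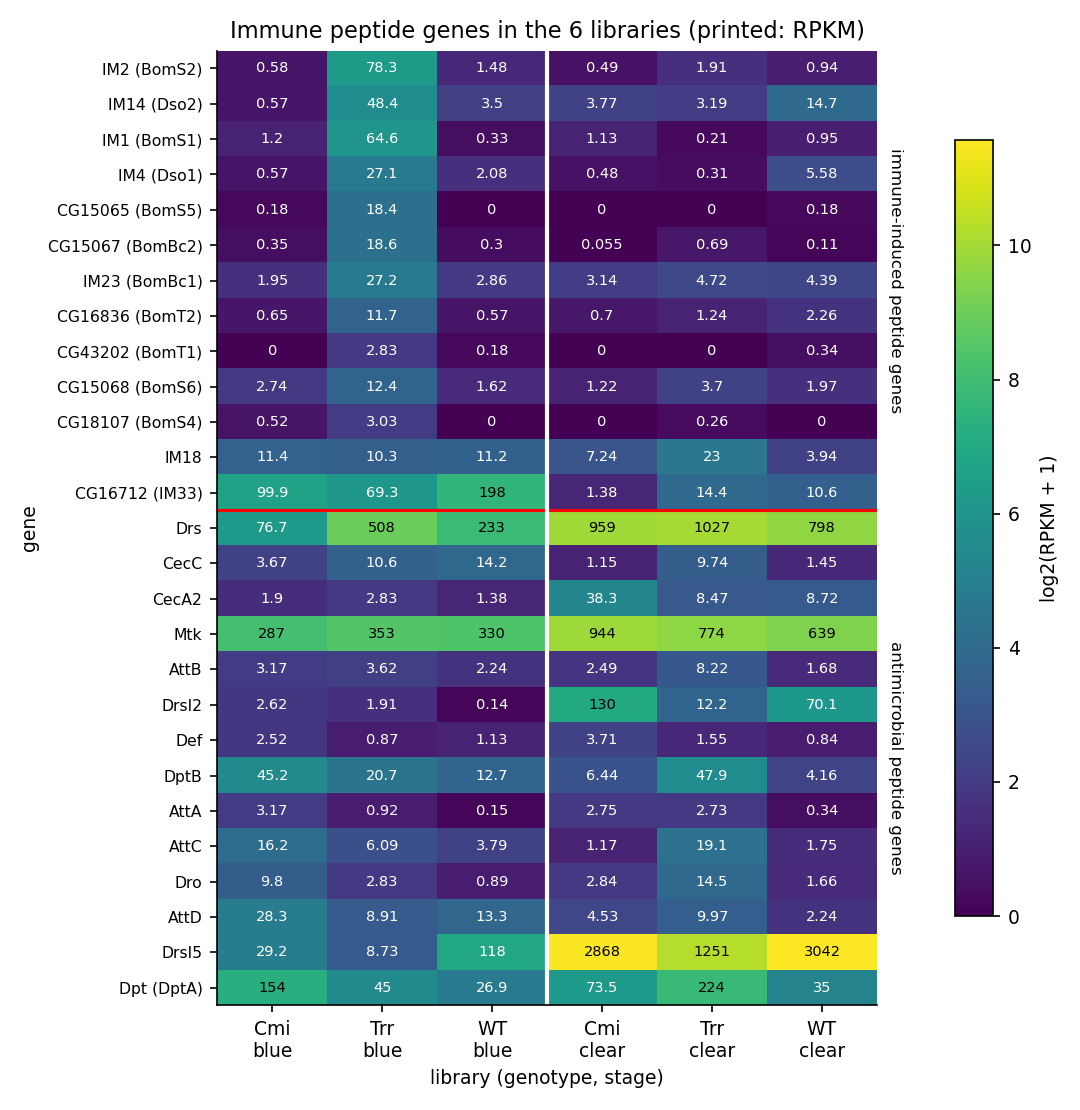
RPKM of the 13 immune-induced peptide genes and the 14 antimicrobial peptide genes (rows, sorted by blue gut ratio within each list) in the 6 libraries (columns). The colour is log2(RPKM + 1) and the printed numbers are RPKM. Most genes of the upper block are bright only in the Trr-labelled blue gut library, IM2 reaching 78.3 RPKM there, while Dpt in the lowest row is brightest in the Cmi-labelled library at blue gut and in the Trr-labelled library at clear gut.

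Blood cell genes, given as markers beside the immune lists, showed no such spread. Of 17 measured, none was past 2-fold and 2 were at least 1.5-fold lower, against 3.73% of all genes. These were the prophenoloxidases proPO45 with 53.0 against 103 RPKM and proPO-A1 with 33.5 against 64.4 RPKM. The summed level over all 19 entries of the list, whose 17 measured members were all above 0, was 634 RPKM in the Trr-labelled and 722 RPKM in the Cmi-labelled library. The plasmatocyte marker Hml had 10.6 and 12.2 RPKM. Their part in the immune values was not tested. In RNA of whole animals, fewer cells of a type and less RNA per cell cannot be told apart.

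Heat shock genes had lower values in the Trr-labelled library. Of 14 measured, 7 were at least 2-fold lower (1.55% of all genes) and 9 at least 1.5-fold lower (3.73%), and none was 1.5-fold higher, with a median log2 ratio of -0.99. Hsp70Ab, a copy of the main inducible chaperone gene, had 4.99 RPKM in the Trr-labelled, 23.3 RPKM in the Cmi-labelled and 12.1 RPKM in the wild-type library. Hsp70Aa had 4.67, 21.96 and 11.5 RPKM in the same order. The Hsp70 genes are near-identical copies whose reads could be shared, so that the 5 measured may not be 5 separate values. The small heat shock gene Hsp26 had 85.7 RPKM in the Trr-labelled and 229 RPKM in the Cmi-labelled library (ratio 0.375, 0.356 to 0.395), with 138 RPKM in wild type. Hsp68 had 33.4 and 69.7 RPKM, while Hsp83, the Hsp90 chaperone, had 776 and 881 RPKM. On the log2(RPKM + 1) scale no heat shock gene was past 2-fold at clear gut. There Hsp70Aa had 1.90 RPKM in the Trr-labelled and 0.57 RPKM in the Cmi-labelled library, and Hsp70Ab had 2.53 and 1.13 RPKM. These 2 genes were thus higher in the Trr-labelled library at that stage, at levels where the added 1 narrows the ratio.

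Metallothioneins, which bind copper and zinc, had higher values in the Trr-labelled library in all 6 genes measured, where 6685 of all 11303 genes had. Of these 6, 5 were at least 1.5-fold higher (6.72% of all genes) and 2 at least 2-fold higher (1.19%). MtnB had 46.3 RPKM in the Trr-labelled and 11.5 RPKM in the Cmi-labelled library (ratio 4.02, 3.22 to 5.07), beside 11.8 RPKM in wild type. MtnC had 11.3 and 2.79 RPKM, with 34.5 RPKM in wild type. MtnA, the most abundant, had 734, 433 and 425 RPKM in the Trr-labelled, Cmi-labelled and wild-type libraries. MtnE had 149, 80.4 and 137 RPKM and MtnD had 74.7, 40.01 and 93.8 RPKM in the same order. The wild-type level therefore lay with the Cmi-labelled library for MtnA and MtnB, with the Trr-labelled library for MtnE and above both for MtnC and MtnD. At clear gut MtnD and MtnE were lower in the Trr-labelled library, at 60.8 against 88.6 RPKM and 49.0 against 57.2 RPKM.

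Detoxification genes went both ways. Of 72 cytochrome P450 genes, 3 were at least 2-fold higher and 6 at least 2-fold lower in the Trr-labelled library, where 1.19% and 1.55% of all genes were. Cyp4p1 had 23.1 RPKM in the Trr-labelled and 6.15 RPKM in the Cmi-labelled library, and 15.1 against 0.40 RPKM at clear gut. Cyp12a4 had 155 and 64.9 RPKM, and only 3.06 RPKM in wild type, so that both hairpin libraries lay above it. Cyp6a2 had 0.81 RPKM in the Trr-labelled and 8.03 RPKM in the Cmi-labelled library (ratio 0.101, 0.0682 to 0.146), and 0.54 RPKM in wild type. Of 31 glutathione S-transferase genes, 3 were at least 2-fold higher and 1 was lower, against the same shares of all genes. The widest ratio was that of GstD2, with 15.3 RPKM in the Trr-labelled, 3.60 RPKM in the Cmi-labelled and 8.38 RPKM in the wild-type library.

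Digestive enzymes of the midgut are the trypsins, the Jonah serine proteases, the maltases and amylases and the gut lysozymes. By count this list held more genes with at least 2-fold lower values than any other list measured. Its share, 22.2%, was below that of some smaller lists, such as 50% of the antimicrobial peptide and of the heat shock genes. Of 45 measured, 10 were at least 2-fold lower in the Trr-labelled library and 2 at least 2-fold higher, against 1.55% and 1.19% of all genes. Below equal levels lay 33 and above them 12, against 4612 and 6685 of all 11303 genes. The median log2 ratio of the list was -0.42. Jon25Biii had 271 RPKM in the Trr-labelled and 1710 RPKM in the Cmi-labelled library (ratio 0.159, 0.154 to 0.163), beside 166 RPKM in wild type. The maltase Mal-A3 had 17.5, 74.1 and 12.5 RPKM in the Trr-labelled, Cmi-labelled and wild-type libraries, and Mal-A4 had 13.1, 51.6 and 11.4 RPKM. For these 3 genes the Cmi-labelled library was the high one of the 3.

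Others were lowest in the Trr-labelled library. Jon25Bi had 120 RPKM there, 435 RPKM in the Cmi-labelled and 276 RPKM in the wild-type library, and betaTry had 203, 682 and 1554 RPKM. Among the 10 lower genes the wild-type level lay nearer to the Trr-labelled library in 6 and nearer to the Cmi-labelled library in 4. The lysozymes LysC, LysD and LysE are close copies, and their values of 608, 759.9 and 175 RPKM against 1734, 1901 and 627 RPKM may share reads. The most abundant members barely differed, Jon65Aiv with 14062 and 14431 RPKM and Jon99Ciii with 7421 and 7848 RPKM. Jon99Fi went the other way, with 434 RPKM in the Trr-labelled, 119 RPKM in the Cmi-labelled and 243 RPKM in the wild-type library (ratio 3.65, 3.50 to 3.81). The summed level over all 46 entries of the list was 65373 RPKM in the Trr-labelled, 76428 RPKM in the Cmi-labelled and 65992 RPKM in the wild-type library. At clear gut the sums were 12477, 8578 and 10274 RPKM, and 23 of the 45 genes were at least 2-fold higher and none 2-fold lower in the Trr-labelled library, where 5.64% and 0.991% of all genes were.

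Cuticle genes differed in both directions. Of 11 Lcp genes, which encode proteins of the larval cuticle, 4 were at least 2-fold lower (1.55% of all genes) and 1 was higher (1.19%) in the Trr-labelled library. The lower genes Lcp65Ag3 and Lcp65Ag2 are neighbours, and whether they share reads was not tested. Lcp65Ag3 had 1.23 against 4.05 RPKM, from 19 and 64 reads. Lcp3 had 2669 RPKM in the Trr-labelled and 546 RPKM in the Cmi-labelled library (ratio 4.89, 4.78 to 5.001) but only 20.3 RPKM in wild type, and at clear gut it had 279, 0.71 and 1.53 RPKM. Lcp9 had 68.6 RPKM in the Trr-labelled, 254 RPKM in the Cmi-labelled and 569 RPKM in the wild-type library. Among 37 genes of the Cpr, Ccp84A, Edg and Tweedle families 6 were at least 2-fold lower and 3 higher, against the same shares. Cpr47Eg had 0.14 RPKM in the Trr-labelled, 4.52 RPKM in the Cmi-labelled and 27.0 RPKM in the wild-type library. Cpr92F had 14.5, 4.33 and 17.3 RPKM in that order. In all 9 of these genes the wild-type level lay nearer to the higher of the hairpin libraries.

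The glue genes, whose products the salivary gland secretes to fix the pupa to its support, had higher values in the Trr-labelled library. Of 9 measured, 2 were at least 2-fold higher (1.19% of all genes) and 4 at least 1.5-fold higher (6.72%), with a median log2 ratio of 0.52. Sgs8 had 1424 RPKM in the Trr-labelled and 460 RPKM in the Cmi-labelled library (ratio 3.09, 2.995 to 3.197), and 3254 RPKM in wild type. Sgs5 had 2690, 1011 and 6576 RPKM in the same libraries. Both thus lay below wild type in either hairpin library, and lowest in the Cmi-labelled library. At clear gut 8 of the 9 genes were at least 2-fold higher in the Trr-labelled library, where 5.64% of all genes were, and Sgs5 had 5196 RPKM there against 750.1 RPKM. The salivary gland transcription factor gene sage, picked after its values were seen, had 64.6 RPKM in the Trr-labelled and 21.2 RPKM in the Cmi-labelled library.

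Muscle genes had somewhat lower values. Of 20 sarcomere genes 16 lay below equal levels, where 4612 of all 11303 genes did. Among the sarcomere genes 5 were at least 1.5-fold lower (3.73% of all genes) and 1 at least 2-fold lower (1.55%), with a median log2 ratio of -0.34. The gene past 2-fold was TpnC47D, a troponin C, with 55.0 RPKM in the Trr-labelled, 126 RPKM in the Cmi-labelled and 114 RPKM in the wild-type library. Mhc, the muscle myosin heavy chain, had 129, 239 and 141 RPKM. At clear gut 13 of the 20 genes were at least 2-fold higher in the Trr-labelled library, against 5.64% of all genes, Mhc with 17.5 RPKM against 1.79 RPKM. Glycolytic genes lay below equal levels in 11 of 13, where 4612 of all 11303 genes did, with a median of -0.26 and none past 2-fold. Of the 10 fat body genes 1 was past 2-fold in each direction, against 1.19% of all genes higher and 1.55% lower. These were Lsp1alpha, a larval storage protein, with 2398 against 1193 RPKM, and CG9466, an alpha-mannosidase, with 79.8 against 165 RPKM.

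**Figure D3:**
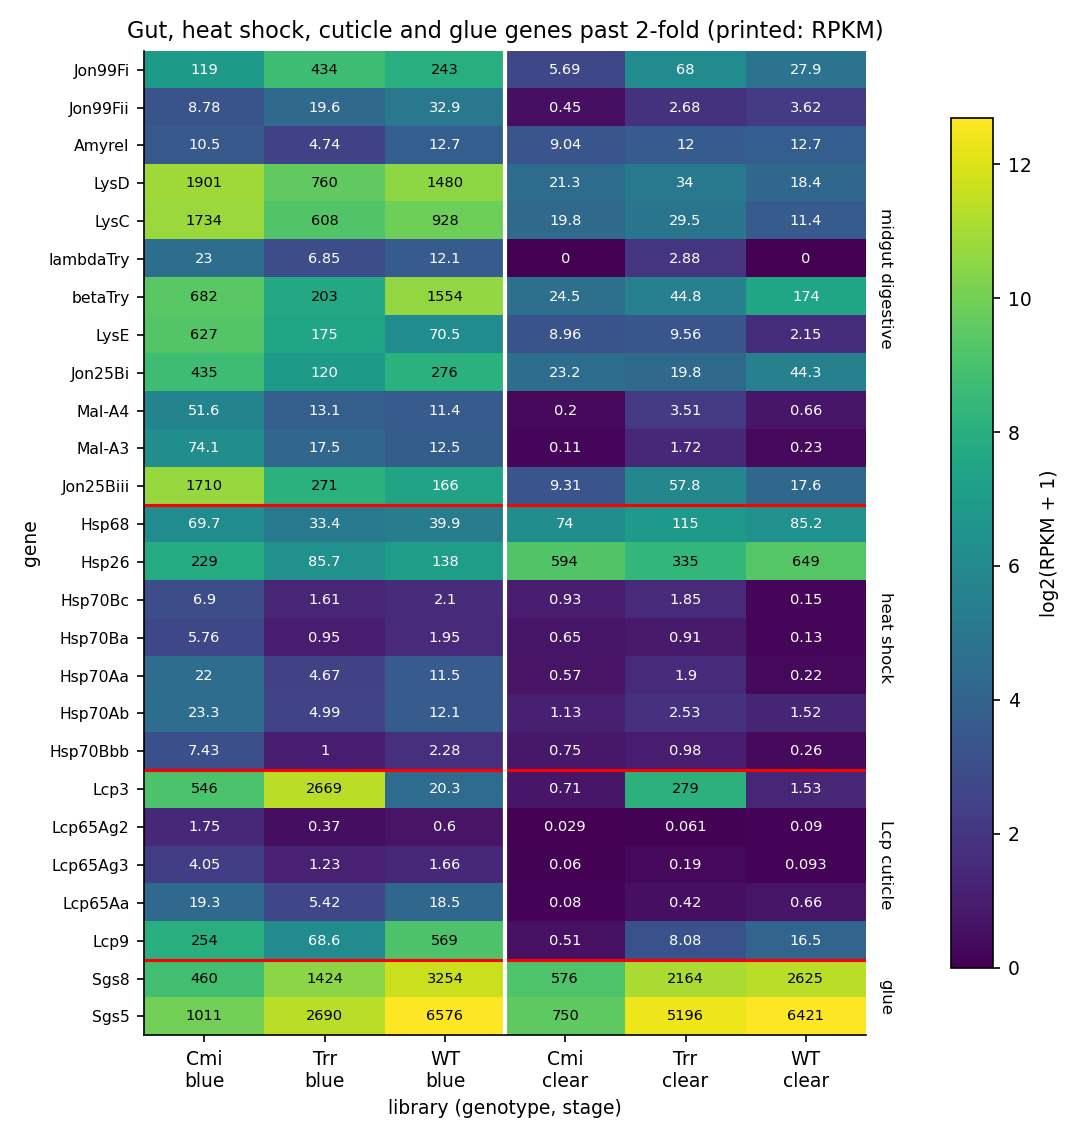
RPKM of the midgut digestive, heat shock, Lcp cuticle and glue genes that lay at least 2-fold apart at blue gut (rows) in the 6 libraries (columns). The colour is log2(RPKM + 1) and the printed numbers are RPKM. Jon25Biii is highest in the Cmi-labelled blue gut library at 1710 RPKM, Lcp3 in the Trr-labelled blue gut library at 2669 RPKM, and Sgs5 and Sgs8 are lower in the Cmi-labelled than in the Trr-labelled library at both stages.

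Larval testis genes had slightly higher values in the Trr-labelled library in 21 of 23 members, where 6685 of all 11303 genes had higher values. None was past 2-fold, 5 were at least 1.5-fold higher (6.72% of all genes) and 1 was at least 1.5-fold lower (3.73%), with a median log2 ratio of 0.45. The lower gene, dj, had 3.296 against 6.002 RPKM at blue gut and 3.54 against 9.88 RPKM at clear gut. The summed level over all 26 entries of the list was 744 RPKM in the Trr-labelled, 519 RPKM in the Cmi-labelled and 645.5 RPKM in the wild-type library. Mst84Db had 47.2, 26.9 and 34.6 RPKM, and betaTub85D, the testis tubulin, had 112, 69.6 and 79.9 RPKM. At clear gut the sums of both hairpin libraries were close, at 683 RPKM in the Trr-labelled and 725 RPKM in the Cmi-labelled library. Sxl, the female splicing switch, had 13.2 and 18.7 RPKM at blue gut, tra had 8.40 and 11.0 RPKM, and msl-2 had 9.22 and 7.96 RPKM. None of these markers was at 0, and the pools' share of males was not tested.

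In the lists of general cellular machinery the genes 1.5-fold apart were mostly low-level copies, a pattern noticed after the values were seen. Among 82 cytoplasmic ribosomal protein genes 8 were at least 1.5-fold higher in the Trr-labelled library, where 6.72% of all genes were, so this count alone is near the background. The 8 genes had a median of 7.13 RPKM in the Cmi-labelled library, and the others had a median of 800 RPKM. They included RpS28a, RpS5b and RpS10a, but also RpL24 at 535 RPKM in the Cmi-labelled and 899 RPKM in the Trr-labelled library. Among 46 proteasome genes 8 were at least 1.5-fold higher, with a median of 5.85 RPKM where the others had 142 RPKM, and they included Prosbeta2R1, Prosalpha6T and Rpt3R. None of these 16 genes was 1.5-fold higher at clear gut. The testis sums above moved in the same direction at blue gut, and their part in this pattern was not tested. The median log2 ratio of the cytoplasmic ribosomal list was 0.22, while that of the proteasome list, at 0.09, turned to -0.05 under median-ratio scaling.

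Lists of developmental and chromatin genes held no gene past 2-fold. None of 22 Polycomb group genes, 6 Hox genes, 29 imaginal disc selector genes, 17 Dpp, 24 Wingless, Hedgehog and Notch, 15 Hippo and 14 Enhancer of split genes lay 1.5-fold apart, against 6.72% and 3.73% of all genes. Their median log2 ratios ran from -0.20 for the Hox list to -0.05 for the Polycomb list, which turned to 0.03 without the entries off whole reads or not judged, as the Hippo list turned from -0.07 to 0.06. Ubx had the widest difference of the Hox genes, with 2.01 RPKM in the Trr-labelled and 3.26 RPKM in the Cmi-labelled library.

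Of 19 early ecdysone response genes, which answer the steroid pulse before metamorphosis, 13 lay below equal levels, where 4612 of all 11303 genes did. Their median was -0.29. None was at least 2-fold higher and 1 was at least 2-fold lower, against 1.19% and 1.55% of all genes. That gene, Cyp18a1, encodes the enzyme that inactivates ecdysone and had 1.72 RPKM in the Trr-labelled, 4.58 RPKM in the Cmi-labelled and 3.67 RPKM in the wild-type library. Eip75B had 8.97, 13.9 and 8.11 RPKM and EcR, the receptor, 18.6, 18.1 and 12.8 RPKM. Of the 5 late Eig71E puff genes measured, 4 lay above equal levels at blue gut and 2 were at least 2-fold higher. These 2 were Eig71Ea with 4.30 against 0.995 RPKM and Eig71Ed with 4.60 against 1.67 RPKM. At clear gut they had 7.72 and 4.30 RPKM in the Trr-labelled and 69.1 and 50.0 RPKM in the Cmi-labelled library. Wild type had 42.0 and 18.9 RPKM. At that stage 1 of the 5 was at least 2-fold higher and 3 were lower, against 5.64% and 0.991% of all genes. The higher gene, Eig71Ee, had 801 against 417 RPKM at blue gut and 2240 against 718 RPKM at clear gut. Eig71Eg was lower in the Trr-labelled library at blue gut and had 31.3 against 28.2 RPKM at clear gut. Whether the blue gut pools were at the same point of development was not tested.

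**Figure D4:**
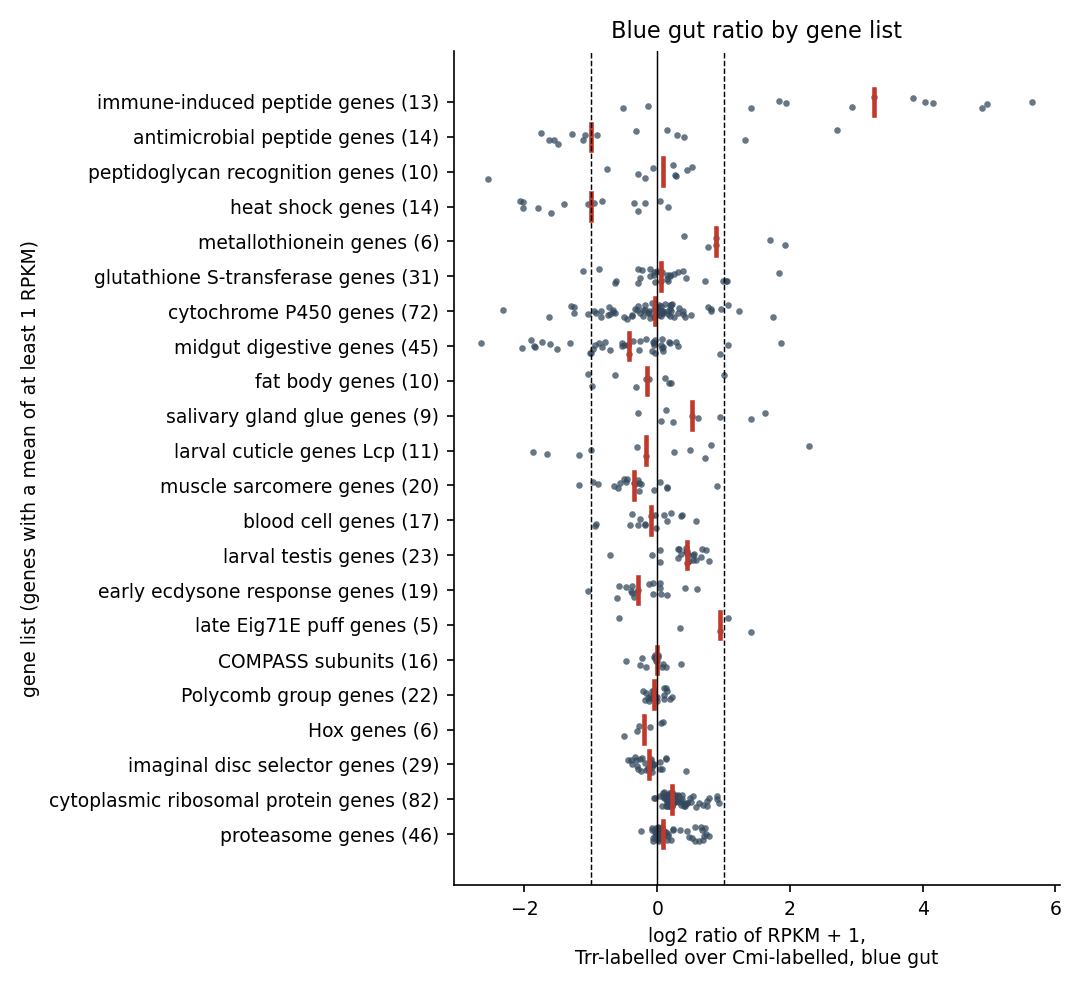
Blue gut log2 ratio of RPKM + 1, Trr-labelled over Cmi-labelled library, for the members of 22 gene lists (points, 1 per gene, shifted vertically at random for visibility), with the number of measured genes in brackets. Red bars are list medians and dashed lines mark 2-fold. The immune-induced peptide genes have a median of 3.26, the heat shock genes one of -0.99, and the COMPASS, Polycomb and Hox genes lie between the dashed lines.

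Outside these lists, wide differences among entries with a symbol were found in several genes known by number only. CG14756 had 8.62 RPKM in the Trr-labelled and 0.05 RPKM in the Cmi-labelled library (ratio 176, 69.0 to 653), with 0.22 RPKM in wild type. CG8160 had 109 RPKM against 8.82 RPKM, with 25.5 RPKM in wild type. The adjacent genes CG42716 and CG42717 on chromosome 3L had 30.7 and 22.6 RPKM in the Trr-labelled library and 0.52 and 0.65 RPKM in the Cmi-labelled library, and here wild type, with 30.5 and 22.8 RPKM, matched the Trr-labelled library. CG31380 and CG11893 had 5.23 and 3.83 RPKM against 0.09 and 0.22 RPKM.

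Among the lowest ratios, CG6271 had 3.73 RPKM in the Trr-labelled, 146 RPKM in the Cmi-labelled and 13.9 RPKM in the wild-type library (ratio 0.0255, 0.0204 to 0.0311). CG13135 had 0 reads in the Trr-labelled library against 24.9 RPKM in the Cmi-labelled library, at least 124-fold lower against the floor of 3 reads, and 0.14 RPKM in wild type. CG11350 had 3.25 RPKM in the Trr-labelled, 72.9 RPKM in the Cmi-labelled and 67.1 RPKM in the wild-type library. CG10953, CG13230 and CG15515 had 3.58, 0.95 and 0.23 RPKM against 49.6, 22.8 and 3.97 RPKM. CG15533 had 2.80 against 31.0 RPKM, and wild type had 5.29 RPKM. CG8087 and CG14852 had 0.70 and 5.97 RPKM in the Trr-labelled, 24.0 and 55.8 RPKM in the Cmi-labelled and 81.6 and 318 RPKM in the wild-type library. Over the 175 lower genes the wild-type level was nearer to the Cmi-labelled library in 79 and nearer to the Trr-labelled library in 96, and over the 134 higher genes in 71 and 63.

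Several of these genes are neighbours. Genes past 2-fold in the same direction and within 50 kb of the next were joined, and runs of at least 3 were kept, as a description with no test. The dm6 coordinates come from RefSeq, which placed 114 of the higher and 161 of the lower genes. The higher genes held 3 such runs with 17 genes and the lower genes 7 runs with 24 genes. The longest lay on chromosome 2R from 18381393 to 18407688, where 11 of the 17 genes measured were at least 2-fold higher in the Trr-labelled library, 9 Bomanin genes together with GstE3 and GstE7. On 3R from 14560935 to 14566513 all 3 genes measured, CG14850, CG8087 and CG14852, were lower, with a median log2 ratio of -3.03. All 4 genes measured on 3R from 27018608 to 27026109 were lower as well, CG17191, CG6283, CG6277 and CG6271. The Cmi-labelled library had 123 RPKM of CG6277 and 399 RPKM of CG6283 where the Trr-labelled library had 22.1 and 163 RPKM.

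The genes that differed also had common features outside the contrast. They were short, with a median gene length of 825.5 bases for the higher and 1016 bases for the lower genes, against 1779 bases for all genes. The median mean level was 9.47 RPKM for the higher and 14.4 RPKM for the lower genes, against 10.8 RPKM for all. These medians are partly set by the pseudocount, which keeps genes with low RPKM from reaching 2-fold. With a pseudocount of 0.1 there were 241 higher and 240 lower genes. Whether differing genes tend to have low levels therefore cannot be read from these medians. In the wild-type libraries, which the ratio does not use, 116 of the 175 lower genes (66.3%) were at least 2-fold lower at clear gut than at blue gut, where 9.40% of all genes were. For the higher genes the number was 43 (32.1%). At least 2-fold higher values at clear gut in wild type were seen for 15 of the lower (8.57%) and 14 of the higher genes (10.4%), against 14.0% of all genes. Across all 11303 genes the blue gut ratio and the wild-type stage difference had a Spearman rho of -0.26 and a Pearson r of 0.00, over genes measured in separate libraries.

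The clear gut libraries came from other pools and a later stage, so they are no replicate of the blue gut comparison. Of the 134 genes at least 2-fold higher at blue gut, 53 (39.6%) were again at least 2-fold higher in the Trr-labelled library at clear gut, where 638 of the 11303 genes (5.64%) were. Of the 175 lower genes, 16 (9.14%) were again lower, where 112 of all genes (0.991%) were. Another 53 lower genes (30.3%) were at least 2-fold higher at clear gut, and 3 higher genes (2.24%) were lower there. Across all genes the ratios at both stages had a Pearson r of 0.03 and a Spearman rho of 0.08.

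Dcr-2 had the same direction at both stages. It encodes the Dicer of the RNA interference pathway. Its level was 17.2 RPKM in the Trr-labelled and 143 RPKM in the Cmi-labelled library at blue gut (ratio 0.121, 0.115 to 0.126), and 25.6 against 197 RPKM at clear gut. Wild type had 14.3 RPKM at blue gut and 29.3 RPKM at clear gut, so that the Cmi-labelled libraries were high at both stages and the others were near each other. The other 13 genes of the small RNA machinery lay within 1.5-fold at blue gut, AGO2 with 90.0 against 77.1 RPKM and Dcr-1 with 4.42 against 4.59 RPKM. CG5953 had 145 RPKM in the Trr-labelled and 494 RPKM in the Cmi-labelled library at blue gut, 245 and 586 RPKM at clear gut, and 36.5 and 99.0 RPKM in wild type at these stages. The transcription factor gene slbo, known from border cell migration in the ovary, had 0.51 against 2.65 RPKM at blue gut and 53.2 against 192 RPKM at clear gut.

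On the higher side, CG32071 had 273 RPKM in the Trr-labelled and 51.3 RPKM in the Cmi-labelled library at blue gut and 49.4 against 0.53 RPKM at clear gut, with 47.4 and 0.73 RPKM in wild type. The alkaline phosphatase gene CG3292 (Alp7) had 204 against 54.9 RPKM and then 17.1 against 0.33 RPKM, with 201 RPKM in wild type at blue gut. Sr-CIV, a scavenger receptor, had 10.5 against 2.78 RPKM and 12.9 against 3.31 RPKM, with 11.2 and 12.9 RPKM in wild type. Entries without a symbol made up 11 of the 53 and 7 of the 16 genes. The strongest of them had 79.2 RPKM at blue gut and 33.8 RPKM at clear gut in the Trr-labelled libraries and 0 in the other 4 libraries.

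The 53 genes with opposite directions, lower at blue gut and higher at clear gut, included 4 midgut digestive genes, the cuticle genes Cpr47Ec and Lcp9 and the antimicrobial genes Dpt, DptB, Dro and AttC. Their median level was 39.2 RPKM in the Cmi-labelled and 12.8 RPKM in the Trr-labelled library at blue gut, and 0.46 and 5.68 RPKM at clear gut. Wild type had medians of 26.0 and 1.53 RPKM, and 45 of the 53 were at least 2-fold lower at clear gut in wild type. That the log2 change from blue to clear gut was more positive in the Trr-labelled than in the Cmi-labelled libraries follows from how these genes were chosen. The span between the stages was not smaller in every gene. CG5391 had 22.1 and 1093 RPKM in the Trr-labelled and 51.4 and 97.5 RPKM in the Cmi-labelled libraries at blue and clear gut. Nplp2, picked after its values were seen, had 82.6 and 590.5 RPKM at blue gut and 25.0 and 2.46 RPKM at clear gut in the Trr-labelled and Cmi-labelled libraries.

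**Figure D5:**
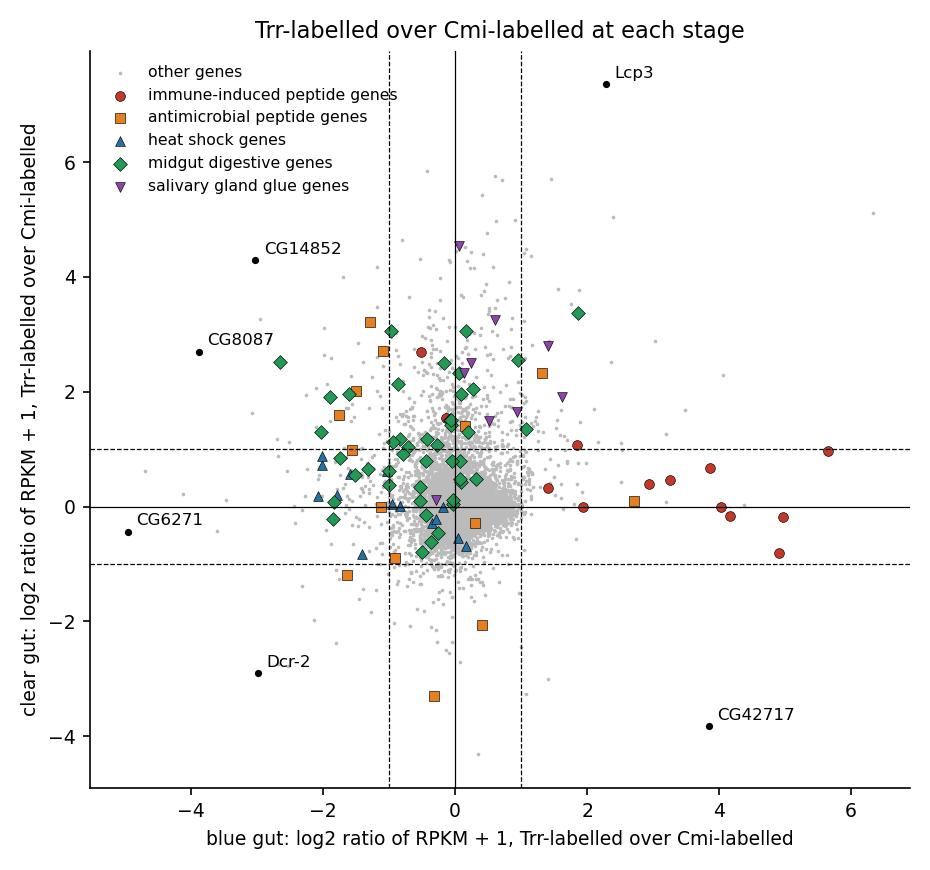
Log2 ratio of RPKM + 1, Trr-labelled over Cmi-labelled library, at blue gut (x axis) and at clear gut (y axis) for the 11303 genes, with 5 gene lists coloured and 6 genes named. Dashed lines mark 2-fold. Dcr-2 lies at -2.98 and -2.90, the Bomanins spread along the x axis, and 53 genes lie in the upper left corner field, lower at blue gut and higher at clear gut.

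The test that the design allows pools the stages. The linear model of limma with genotype and stage as additive terms, fitted to 11467 genes in all 6 libraries, called 0 genes (0%) between Trr-labelled and Cmi-labelled larvae at a Benjamini-Hochberg adjusted p of 0.05, and 492 genes (4.29%) had an unadjusted p under 0.05. The smallest adjusted p was 0.0944, shared by Dcr-2 and 4 entries without a symbol. For Dcr-2 the log2 difference over both stages was -2.94 with an SE of 0.18. IM2 had a difference of 3.31 with an SE of 1.27 and a limma adjusted p of 0.988. With additive terms, a genotype difference that is unequal at blue and clear gut enters the residual, which has 2 degrees of freedom, and so raises the error of that gene.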

How the data were processed

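RNA of whole larvae underwent DNase I digestion and oligo dT selection and was sequenced on an Illumina HiSeq instrument, and filtered reads were aligned with SOAPaligner/SOAP2, per the labels' protocols. Bowtie and dm6 are named in the submitters' processing notes. The counter and the annotation were not stated in any source used here. The table the authors deposited holds RPKM, which the authors scaled for gene length and library depth. RPKM times length sums to the same total in every column, so values are relative to the reads on the listed genes. A dash was read as 0. Of 15741 entries 2307 have no symbol, and 13253 (84.2%) matched RefSeq by identifier.

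Whole reads were recovered from the RPKM steps: 83.4% to 84.7% of low values came out whole at a tolerance of 0.1 read (20% by chance), and nearly all others were at 0.5 of a read. Ratios carry exact Clopper-Pearson 95% intervals and a floor of 3 reads per library (0.0825 and 0.0836 RPKM at the median length of 1543 bases), both covering counting error only. Log2 values use a pseudocount of 1, which understates low genes. The limma test (3.58.1, R 4.3.3, statmod 1.5.0, eBayes with trend and robust, two-sided) used genes averaging at least 1 RPKM across 6 libraries. Depth recovery, intervals and limma were tested on simulated data. Other calculations used Python 3.11.15 with scipy 1.17.1.

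Named genes, among entries with a symbol, are the 12 highest and 12 lowest by the interval bound nearest to 1, the 8 highest and 8 lowest at both stages, the COMPASS subunits, and up to 4 members of each list with the widest ratio. Further members of a list were named after their values were seen. Members and lists were chosen with earlier results of these data known. The alternatives were another pseudocount, other filters, median-ratio and quantile scaling, leaving out entries off whole reads, and other limma settings. No sequences are printed.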

Additional observations from a re-analysis of the deposited data

Results flagged for a closer look

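In 17 genes picked by the naming rule the Trr-labelled library was at least 2-fold apart from the Cmi-labelled library in opposite directions at blue gut and clear gut, and this difference between the stages was not tested. Each value is the clear gut log2 ratio minus the blue gut log2 ratio. In 14 genes the value was positive, lower at blue gut and higher at clear gut. Among neighbours on chromosome 3R it was 6.58 for CG8087, 7.31 for CG14852 and 6.22 for CG14850. Digestive genes had 5.16 for Jon25Biii, 3.32 for Mal-A3 and 3.81 for Mal-A4. Cuticle and chitin-binding genes had 3.38 for Cpr47Ec, 4.47 for Lcp9 and 2.41 for obst-I. The value was 3.79 for TpnC47D, 3.35 for Dpt, 3.35 for Cyp6w1, 2.18 for Cyp18a1 and 4.71 for CG15533. DptB, Dro, AttC and Nplp2, named outside the rule, were also lower at blue gut and higher at clear gut by at least 2-fold.

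In 3 genes the value was negative, since the Trr-labelled library was higher at blue gut and lower later. It was -4.34 for Eig71Ed and -4.42 for Eig71Ea. For CG42717 it was -7.66, with 22.6 RPKM in the Trr-labelled and 0.65 RPKM in the Cmi-labelled library at blue gut, 7.61 and 120 RPKM at clear gut, and 22.8 and 146 RPKM in wild type.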

How the results depend on the processing

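With a pseudocount of 0.1 the higher genes numbered 241 and the lower 240, those higher at both stages 90, lower at both stages 24, and opposite 107, of which 101 were lower and then higher and 6 higher and then lower. A mean of at least 5 RPKM left 8 genes lower at both stages and leaving out entries off whole reads or not judged left 9, where 16 were found; both test fewer genes. The 3 genes higher first and lower later became 1 at a mean of at least 5 RPKM. The counts higher and lower at blue gut stayed within 1.5 times elsewhere: median-ratio scaling gave 91 higher and 230 lower, quantile normalization 110 and 204, a mean of at least 5 RPKM 93 and 127, no filter 147 and 181, and leaving out entries off whole reads or not judged 108 and 149 of 6556 genes. limma called 0 genes under each of its 8 alternatives, with 269 to 774 genes at an unadjusted p under 0.05 and a smallest adjusted p of 0.0728 to 0.793. Of 238 named genes, 7 lost the 2-fold difference under median-ratio scaling and 3 under quantile normalization, and the causes of these moves were not tested. Graded as unchanged were 165 named genes under median-ratio scaling and 221 under quantile normalization. A further 59 were graded as moved and 7 as stronger under median-ratio scaling, and 12 and 2 under quantile normalization. Several list medians changed sign, that of the Lcp list from -0.17 to 0.37 at a mean of at least 5 RPKM. Without entries off whole reads or not judged, the blood cell list went from -0.09 to 0.11 and the clock list from -0.04 to 0.52. Replicates could not be paired because each group has 1 library, and stage is a term of the limma model. The 1.5-fold counts were not recomputed. Genes with few reads have wide intervals, and no setting stands in for a second pool.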

Other observations

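Odorant binding protein genes, whose products carry small hydrophobic molecules, were above equal levels in 16 of 22 genes at blue gut, where 6685 of all 11303 genes were. Their median log2 ratio was 0.40. In the Trr-labelled library 4 were at least 1.5-fold higher and 1 was lower, against 6.72% and 3.73% of all genes. Obp99b, the most abundant, had 6871 RPKM in the Trr-labelled, 4145 RPKM in the Cmi-labelled and 11956 RPKM in the wild-type library. Obp56h had 8.21, 3.67 and 5.09 RPKM. Of 18 insulin and TOR genes 14 lay below equal levels, where 4612 of all 11303 genes did. Thor, the translation inhibitor 4E-BP, had 768 RPKM in the Trr-labelled, 1184 RPKM in the Cmi-labelled and 1293 RPKM in the wild-type library.

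In the Trr-labelled library 1 of 26 genes of chitin synthesis and the chitin matrix was at least 2-fold higher and 2 were lower. The shares of all genes were 1.19% and 1.55%. Cht9, a chitinase, had 58.4 RPKM in the Trr-labelled, 21.2 RPKM in the Cmi-labelled and 12.5 RPKM in the wild-type library. Among 6 clock genes 1 was at least 2-fold higher and none was lower, against the same shares. Above equal levels lay 2 and below them 4, with a median log2 ratio of -0.04. The 2 above were Clk with 3.89 against 1.86 RPKM and to, takeout, with 4.16 against 1.48 RPKM. Among the 4 below, vri had 27.6 against 35.3 RPKM.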
